A study of Mus musculus with 4 samples.

Results

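Txnip, its 4 relatives among the alpha-arrestins (Arrdc1, Arrdc2, Arrdc3 and Arrdc4) and the 3 glucose-sensing transcription factor genes Mlxip, Mlxipl and Mlx were examined in engineered neural tissue of the mouse, with and without electrical stimulation. The 8 genes were taken by symbol from a count table of 23874 genes. All 8 were found, and all 8 passed the filter on low counts, as did 14263 genes in all. They were chosen with results of the same comparison known, so their differences between the groups are descriptions and carry no p-value.

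The tissue was grown from neurospheres, floating clusters of neural stem cells, set in Matrigel under DMEM/F12 medium with N2, B27 and 20 ng/ml human bFGF, the same for both groups. In the EF group a field of 150 mV/mm was applied daily, 30 min at a time, over 3 days and followed by 7 more days of culture. The noEF group had no field. Both groups are labelled day 7, but no length of culture is stated for noEF, so an equal culture age is not certain. The labels give the cells as neural stem cells and name no strain, age or genotype. The series design speaks of stem cell suspensions as the control, whereas the labels call both groups engineered tissue. The labels speak of 3 replicates in a group, of which 2 in each were analysed here, and nothing says that they came from separate cultures, so the spread between them may be technical. Total counts were 33748880 to 34554537 per library.

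Txnip encodes the thioredoxin-interacting protein, an arrestin-fold protein that binds reduced thioredoxin and restrains glucose uptake by drawing glucose transporters into the cell. The other alpha-arrestins share this fold and act as adaptors that bring membrane proteins to ubiquitin ligases of the Nedd4 family. Glucose phosphates send MondoA (Mlxip) and ChREBP (Mlxipl), each paired with Mlx, to carbohydrate response elements, which are paired E-boxes set a fixed distance apart, and Txnip and Arrdc4 are the best known genes they switch on.

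The windows before the start sites of Txnip and Arrdc4, the textbook targets of the Mondo factors, are shown with that of Arrdc3, an alpha-arrestin of similar abundance to Arrdc4. They come from RefSeq on GRCm38.p6 and run 5′ to 3′ on the gene's own strand over the 250 bases before the start. Capitals mark matches, on either strand, to the E-box pair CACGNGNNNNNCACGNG, the E-box CACGTG, the CCAAT box and the FoxO element GTAAACA.
Txnip, chr3:96557707-96557956, plus strand: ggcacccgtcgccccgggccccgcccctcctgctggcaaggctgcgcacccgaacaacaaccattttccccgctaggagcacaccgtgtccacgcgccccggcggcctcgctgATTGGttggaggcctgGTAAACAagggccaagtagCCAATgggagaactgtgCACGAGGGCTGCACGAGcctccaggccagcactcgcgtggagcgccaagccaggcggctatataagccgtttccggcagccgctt
Arrdc4, chr7:68749239-68749488, minus strand: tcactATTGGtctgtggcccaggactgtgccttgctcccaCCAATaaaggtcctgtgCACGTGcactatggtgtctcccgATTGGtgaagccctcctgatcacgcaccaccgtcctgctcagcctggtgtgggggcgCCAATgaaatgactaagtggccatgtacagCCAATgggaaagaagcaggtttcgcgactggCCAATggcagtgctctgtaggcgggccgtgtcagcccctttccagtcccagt
Arrdc3, chr13:80883134-80883383, plus strand: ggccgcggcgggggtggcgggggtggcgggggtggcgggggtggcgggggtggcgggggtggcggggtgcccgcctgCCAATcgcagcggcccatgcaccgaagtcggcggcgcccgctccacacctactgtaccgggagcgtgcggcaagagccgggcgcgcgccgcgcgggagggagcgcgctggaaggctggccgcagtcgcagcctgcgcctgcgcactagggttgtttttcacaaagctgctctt

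The Txnip window held 1 E-box pair, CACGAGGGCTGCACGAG, at bases -85 to -69 from the start. It also held 1 FoxO element at -121 to -115 and 2 CCAAT boxes, at -137 to -133 and -102 to -98. The pair occurred in 15 of 32851 such windows of the mouse genome (0.0457%), the FoxO element in 3.17%, CACGTG in 6.02% and a CCAAT box in 33.8%. The Arrdc4 window held 1 CACGTG, at -193 to -188, and 6 CCAAT boxes, but no E-box pair in this spelling. The Arrdc3 window shown held 1 CCAAT box and no other match. Arrdc3 has other start sites, and its window at chr13:80885845-80886094 held no match. All 8 genes had a RefSeq window, 11 windows in all, and Mlx (-40 to -35) and Mlxipl (-98 to -93) also had a CACGTG. The Mlxipl match was in the window at chr5:135089640-135089889, while the Mlxipl window at chr5:135106641-135106890 held no match. The 15 windows with the pair belonged to 14 genes, 9 of them tested. Of these 1 was called, Txnip itself, against 8.82% of all tested genes. Txnip was chosen with its difference known, so this count is no test of the motif. Among the other tested genes of this set, Rbbp4 had a log2 fold change of 0.19 (SE 0.08), Man2b2 0.20 (SE 0.10) and Fnip1 -0.10 (SE 0.13). The motifs were picked from textbook knowledge after the windows had been read, and a match in letters is not a measured binding site.

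Txnip was about 2-fold higher in stimulated tissue, and it alone of the 8 genes was called. Arrdc4 leaned the same way without a call, Arrdc3 was nearly level, and Arrdc1 and Mlx leaned the other way. By edgeR's quasi-likelihood fit over all genes, with a call at a Benjamini-Hochberg adjusted p under 0.05, 1 of 8 members was called, against 8.82% of all tested genes in either direction with 3.83% higher in EF and 4.99% lower. The EF and noEF libraries did not overlap for 4 of the 8, which was the case for 54.4% of all tested genes. Both EF libraries were above both noEF libraries in 2 of them (27.6% of all tested genes) and below in 2 (26.8%). These shares are given for scale, since the choice of genes used this comparison.

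Txnip (ENSMUSG00000038393, chromosome 3, 96557957 to 96561883, plus strand) had 125 and 121 CPM (counts scaled to library size, with TMM factors) in EF 1 and EF 2, and 57.3 and 65.6 CPM in noEF 1 and noEF 2. Both EF libraries lay above both noEF libraries, and the replicates of each group were close to each other. The means were 123 ± 2.59 and 61.5 ± 5.86 CPM (SD, n = 2 per group), which is 2.00-fold or 1.00 (SE 0.10) on the log2 scale. The raw counts behind these values were 4464, 4236, 1865 and 2206. In bulk RNA a change in the cells present and a change in RNA per cell cannot be told apart. Txnip was more abundant than 84.6% of tested genes, and 391 tested genes had a log2 fold change as high or higher. The log2 fold change was 0.91 to 1.10 over 13 other ways of processing or leaving out a library, and the gene kept its call in each.

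Arrdc4 (ENSMUSG00000042659, chromosome 7, 68736995 to 68749241, minus strand), the alpha-arrestin closest to Txnip in its control by glucose, had 30.8 and 29.9 CPM in EF and 23.4 and 26.3 CPM in noEF. The EF libraries lay above the noEF libraries, but by far less than for Txnip. Its log2 fold change of 0.29 (SE 0.13), 1.22-fold, was not called in any of the fits, with values of 0.21 to 0.37 across them.

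Arrdc3 (ENSMUSG00000074794, chromosome 13, 80883384 to 80896042, plus strand), an adaptor in the trafficking of adrenergic receptors, had 32.7 and 29.5 CPM in EF and 30.5 and 29.4 CPM in noEF. The groups overlapped, and the log2 fold change was 0.05 (SE 0.13). It went to -0.10 (SE 0.12) after removal of each library's trend on GC content and exon length, so no direction can be given.

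Arrdc1 and Arrdc2 were scarce. Arrdc1 (ENSMUSG00000026972, chromosome 2, 24925352 to 24935252, minus strand), whose product recruits the ESCRT protein Tsg101 to bud vesicles from the plasma membrane, had 2.61 and 1.75 CPM in EF and 3.66 and 3.00 CPM in noEF. Both EF libraries lay below both noEF libraries, but the log2 fold change of -0.61 had an SE of 0.38 and was not called. It ran from -0.93 without EF 1 to -0.35 without EF 2. Arrdc2 (ENSMUSG00000002910, chromosome 8, 70835129 to 70839720, minus strand) had 3.50 and 2.52 CPM in EF and 2.06 and 5.00 CPM in noEF. The noEF libraries lay on either side of the EF libraries, and the log2 fold change of -0.23 (SE 0.41) went to 0.55 (SE 0.49) without noEF 2.

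Of the transcription factor genes, Mlx (ENSMUSG00000017801, chromosome 11, 101087277 to 101092207, plus strand), the shared partner, had 41.5 and 36.4 CPM in EF and 49.1 and 42.7 CPM in noEF. The EF libraries lay below the noEF libraries by a narrow margin, with a log2 fold change of -0.24 (SE 0.12) that was not called. It was -0.08 with the trend on GC content and exon length removed, -0.15 with library totals, -0.14 without EF 2 and -0.13 without noEF 1. Exons of Mlx overlap those of Psmc3ip on the opposite strand by 385 bases, and no strand setting is given for the counts, so reads there cannot be told apart.

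Mlxip (ENSMUSG00000038342, chromosome 5, 123394798 to 123457932, plus strand), which encodes MondoA, had 11.6 and 14.0 CPM in EF and 17.1 and 11.6 CPM in noEF. The groups overlapped, and the log2 fold change of -0.16 (SE 0.20) went to 0.15 without noEF 1. Mlxipl (ENSMUSG00000005373, chromosome 5, 135089890 to 135138382, plus strand), which encodes ChREBP, the form best known from liver and fat, had 30 and 22 counts in EF and 8 and 37 counts in noEF. These are 0.840, 0.630, 0.246 and 1.10 CPM, and the 2 noEF libraries bracket both EF libraries. With an SE of 0.84 on a log2 fold change of 0.12, a difference was not detectable at this depth.

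**Figure D1:**
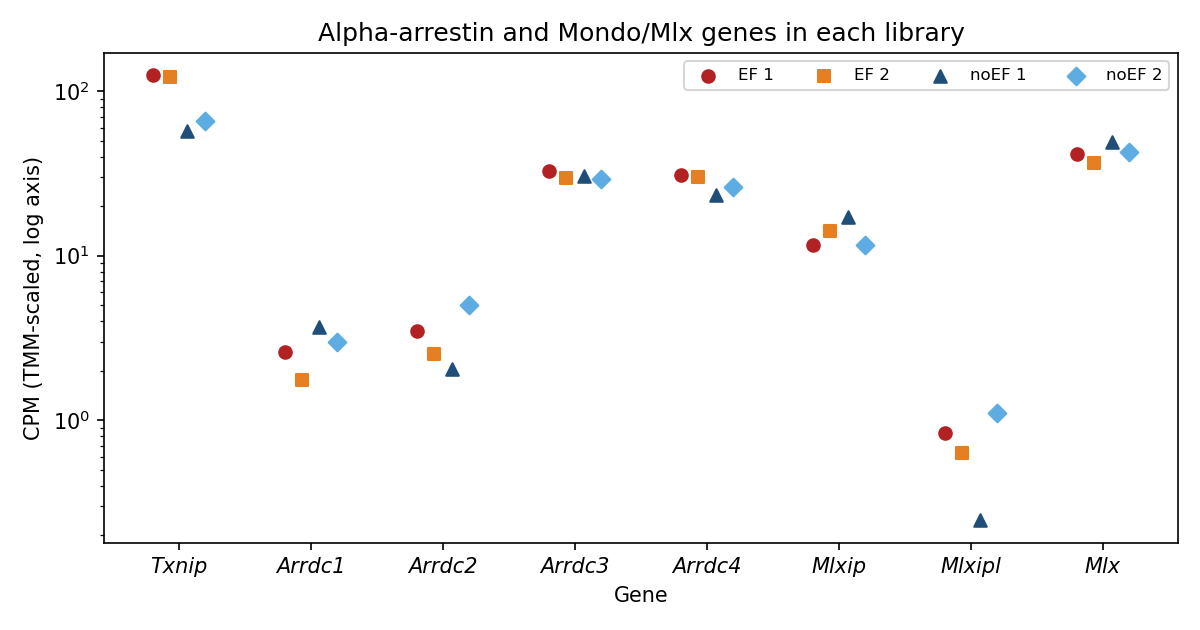
CPM of the 8 genes in each library on a log axis, with 1 point per library (circles and squares for EF 1 and EF 2, triangles and diamonds for noEF 1 and noEF 2). Txnip is at 121 to 125 CPM in EF and 57.3 to 65.6 CPM in noEF, while the points of Arrdc3 nearly coincide and those of Arrdc2 and Mlxipl spread most within noEF.

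**Figure D2:**
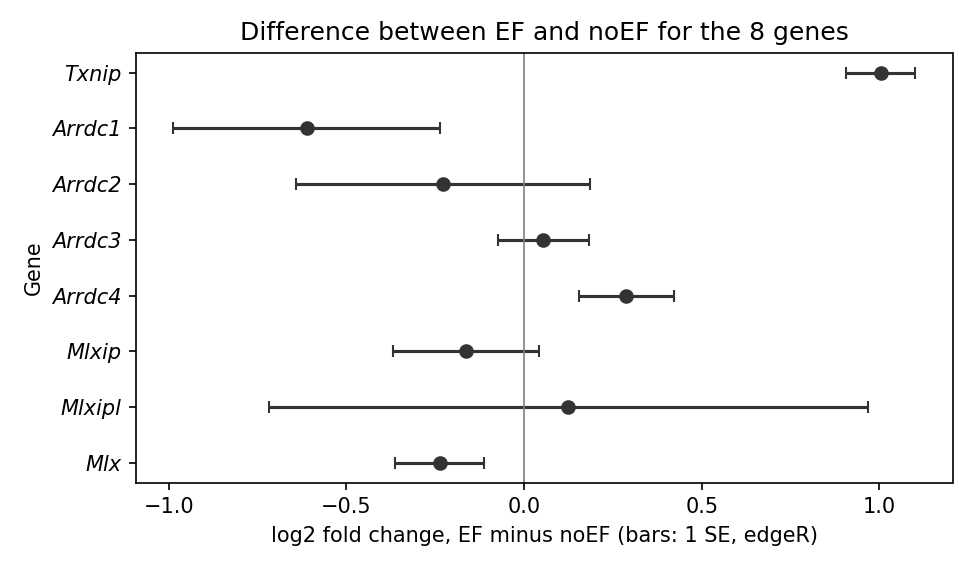
Log2 fold change, EF minus noEF, of each gene from the edgeR fit, with bars of 1 SE on either side. Txnip stands at 1.00 (SE 0.10), and the other genes lie between -0.61 and 0.29, with the widest bar for Mlxipl (SE 0.84).

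Replicates of the same group differed from each other in several of these genes, in both groups. Between noEF 2 and noEF 1 the ratio of scaled counts was 2.43 for Arrdc2 (95% exact binomial interval 1.82 to 3.27), 4.48 for Mlxipl (2.05 to 11.1) and 0.676 for Mlxip (0.592 to 0.771). The intervals cover counting error only. For Txnip the same ratio was 1.15 (1.08 to 1.22), and between EF 2 and EF 1 it was 0.971 (0.930 to 1.01). Between the EF libraries the ratio was 0.671 for Arrdc1 (0.478 to 0.937), 0.720 for Arrdc2 (0.542 to 0.954), 1.21 for Mlxip (1.06 to 1.39), 0.875 for Mlx (0.811 to 0.944) and 0.904 for Arrdc3 (0.830 to 0.984). A difference of more than 2-fold between the noEF replicates was seen in 6.58% of all tested genes, and one between the EF replicates in 6.37%.

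Levels of different genes were compared per kilobase of exon, using the merged exons of GENCODE M21. On this scale Txnip was the most abundant of the 8 with a mean over the 4 libraries of 29.6 CPM per kb, followed by Mlx at 21.2, Arrdc4 at 6.83, Arrdc3 at 4.87, Mlxip at 1.63, Arrdc1 at 1.10, Arrdc2 at 1.01 and Mlxipl at 0.127. Txnip and Mlx overlapped over the libraries. Txnip lay above Mlx in both EF libraries (40.0 and 38.9 against 20.8 and 18.2 CPM per kb) and below it in both noEF libraries (18.4 and 21.0 against 24.6 and 21.4). Mlxip and Arrdc1 overlapped, as did Arrdc1 and Arrdc2. Every other pair of neighbours in this order was separate in all 4 libraries.

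Txnip made up most of the alpha-arrestin transcripts in both groups, and its share was larger in EF. It was 72.8% and 74.1% of the summed CPM per kb of the 5 genes in EF, and 59.0% and 60.1% in noEF. The sum of the 4 Arrdc genes was 14.9 and 13.6 CPM per kb in EF against 12.8 and 13.9 in noEF, ranges that overlap, so the larger total in EF was carried by Txnip. The ratio of Txnip to Arrdc4 was 5.26 and 5.24 in EF and 3.16 and 3.23 in noEF. Among the transcription factor genes Mlx exceeded Mlxip by 10.8 to 15.4 times per kb, and Mlxipl was 0.167% to 0.865% of the sum of the 3.

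**Figure D3:**
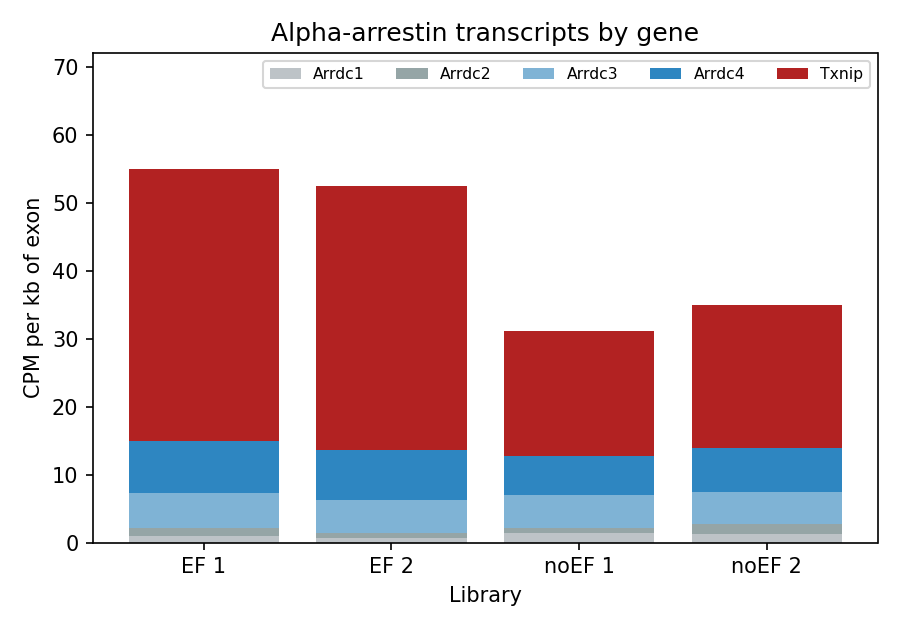
Stacked CPM per kb of exon of the 5 alpha-arrestin genes in each library. The Txnip block is 40.0 and 38.9 CPM per kb in EF and 18.4 and 21.0 in noEF, and the blocks of the 4 Arrdc genes together differ little, at 12.8 to 14.9.

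Among the other genes that the Mondo factors are known to induce in at least 1 tissue, more were called lower than higher. Of 28 listed genes 23 were tested, and 4 were called lower in EF and 1 higher. Over all tested genes 4.99% were called lower and 3.83% higher. The list median log2 fold change was -0.22, against 0.01 for all tested genes. With the length and GC trend removed the list median was -0.08, and edgeR called 6 lower and 2 higher. This list and those below were chosen with earlier results of these data known. Thrsp, a nuclear protein that promotes fat synthesis, averaged 60.6 ± 4.04 CPM with the field and 120 ± 9.87 CPM without it (SD, n = 2 per group; log2 fold change -0.98, SE 0.10, edgeR adjusted p = 4.05e-05). The stearoyl-CoA desaturase genes Scd1 and Scd2, which make monounsaturated fatty acids, were lower by log2 fold changes of -0.74 and -0.34 (edgeR adjusted p = 6.01e-05 and 0.0152), although Scd2 lost its call without EF 1 (adjusted p = 0.142), without EF 2 (0.137) and with the replicate block (0.0674). Taldo1, the transaldolase of the pentose phosphate pathway, was at -0.52 (edgeR adjusted p = 0.00323). The gene called higher was Gpd1, a glycerol phosphate dehydrogenase, at 0.37 (edgeR adjusted p = 0.031). It lost the call without EF 1, without EF 2 and without noEF 1 (adjusted p = 0.22, 0.0856 and 0.0671) and with the replicate block (0.068), and it is named after its value was seen. Pklr, G6pc and Fgf21, textbook liver targets, had no count in any library.

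The thioredoxin system, to which Txnip binds, was lower in part. All 22 listed genes were tested, with 6 called lower and 1 higher (4.99% and 3.83% of all tested genes) and a median log2 fold change of -0.21. Prdx6, Srxn1, Prdx1 and Prdx5 encode peroxiredoxins and a sulfiredoxin. Their log2 fold changes were -0.55, -0.47, -0.44 and -0.52 (edgeR adjusted p = 5.86e-04, 0.00269, 0.00506 and 0.00521). Prdx5 shares exon bases with Trmt112 on the opposite strand. Txndc17 and Txnrd3 were the other lower genes, at -0.60 and -0.61, and the membrane thioredoxin gene Tmx1 was higher at 0.30 (edgeR adjusted p = 0.0398, 0.0431 and 0.0405), named after their values were seen. Txndc17 lost its call without EF 1 and without noEF 1, where it was at -0.41 and -0.43 (edgeR adjusted p = 0.197 and 0.067). Txnrd3 lost its call in 8 of 13 alternatives, among them the fits without EF 1, EF 2 or noEF 1 (edgeR adjusted p = 0.168, 0.0783 and 0.193). Tmx1 lost its call in 7, the same 3 fits included (edgeR adjusted p = 0.198, 0.111 and 0.167). Without EF 1 and without noEF 1 the list had 4 genes called lower by edgeR. Thioredoxin itself, Txn1, averaged 1695 ± 286 CPM with the field and 2269 ± 263 CPM without it (SD, n = 2 per group), and the difference of -0.42 on the log2 scale did not pass (edgeR adjusted p = 0.0899).

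Genes of glucose uptake and sugar phosphate metabolism were also lower in part. Of 20 tested genes 4 were called lower, against 4.99% of all tested genes, and the median was -0.28. No gene was called higher by the main edgeR fit, DESeq2 or limma-voom. Among the other fits on all 4 libraries, edgeR called 1 higher with library totals and 1 with no filter. The 1 higher gene at an unadjusted p under 0.05 was the glucose transporter gene Slc2a3, at 0.37 (SE 0.12, edgeR adjusted p = 0.068). The pentose phosphate enzymes Tkt, G6pdx and Pgd had log2 fold changes of -0.45, -0.52 and -0.35 (edgeR adjusted p = 0.00256, 0.0109 and 0.0263), and the glucose transporter gene Slc2a12 was at -0.77 (adjusted p = 0.0338). Slc2a12 and G6pdx each overlap a gene on the opposite strand. Without EF 1 the list had 2 called genes, Pgd and Slc2a12 having lost their call (adjusted p = 0.0898 and 0.0766), and without EF 2 it had 2 (0.128 and 0.0874, with G6pdx at 0.0638). Slc2a12 also lost its call without noEF 2, where it was at -0.50 (edgeR adjusted p = 0.238), and in limma-voom (0.0714), and Pgd with library totals (edgeR adjusted p = 0.0767). Slc2a1, the main glucose transporter of glia and a cargo of Txnip, averaged 81.9 ± 6.52 CPM with the field and 84.1 ± 1.28 CPM without it (SD, n = 2 per group), for a log2 fold change of -0.04 (SE 0.10).

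The partners of the alpha-arrestins showed no called gene in the main edgeR fit. By edgeR's quasi-likelihood test 0 of 14 tested Nedd4-family ligase and ESCRT genes were called, with 2 at an unadjusted p under 0.05 (both higher), and DESeq2 and limma-voom called 0. The one with the smallest p was the ligase gene Wwp1, 0.30 higher on the log2 scale with an SE of 0.10 (adjusted p = 0.0852 in edgeR). It was called by edgeR with library totals as the scaling (adjusted p = 0.0244) and with no filter (0.0382). With library totals edgeR called 2 genes of this list higher, so Wwp1 was not alone there. Hgs, of the same list, appears under 2 identifiers that share exons and was left out. Of 5 tested arrestin-fold relatives 0 were called by any of the 3 tools and 1 had an unadjusted p under 0.05 in edgeR, the beta-arrestin gene Arrb1 with -0.40 on the log2 scale, an SE of 0.15 and an adjusted p of 0.118. Arrdc5, the remaining alpha-arrestin, had no count in any library, and a very low level cannot be told from absence. Of 7 tested receptor and transporter genes reported as cargo 0 were called by any of the 3 tools and 0 had an unadjusted p under 0.05 in edgeR. Slc11a2, an iron transporter gene, had the smallest p, at 0.20 (SE 0.13).

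The wider Max network, to which Mlx and the Mondo factors belong, had 0 of 10 genes called by edgeR, DESeq2 or limma-voom and 0 at an unadjusted p under 0.05 in edgeR. Myc was closest, with -0.28 on the log2 scale, an SE of 0.13 and an adjusted p of 0.216 in edgeR. The 20 energy and insulin signalling genes, which include the kinases and FoxO factors that act on Txnip, had a median log2 fold change of 0.02.

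A group of 16 glucocorticoid receptor and response genes was listed because steroid hormones are known to raise Txnip. Of these 1 was called higher, the transcription factor gene Klf9, against 3.83% of all tested genes. Klf9 averaged 26.1 ± 7.33 CPM with the field and 14.1 ± 0.571 CPM without it (SD, n = 2 per group), a log2 fold change of 0.89 (edgeR adjusted p = 0.0103). It lost the call without EF 1, where its log2 fold change was 0.57 (edgeR adjusted p = 0.111). DESeq2 and limma-voom each called 2 genes of this list lower, where the main edgeR fit called 0 and had 3 at an unadjusted p under 0.05. Those 3 were Plin4, with counts of 2 and 2 in EF and 24 and 18 in noEF, Klf15 at -0.51 (SE 0.18) and Nfkbia at -0.27 (SE 0.11). With the length and GC trend removed edgeR called 1 lower, with and without the replicate block. The edgeR fits with an EF library left out also called genes of this list lower. The list median was 0.02, with 9 genes above 0 and 7 below. Among those below were Mt1 at -1.13 (SE 0.39) and Mt2 at -1.03 (SE 0.35), neither called by edgeR. The receptor gene Nr3c1 was at 0.06 (SE 0.10). Of the inflammasome genes, whose sensor Nlrp3 is a reported partner of Txnip, 5 of 8 were tested. The cytokine gene Il18 was the 1 called lower, against 4.99% of all tested genes. Il18 averaged 34.0 ± 2.39 CPM with the field and 54.7 ± 5.91 CPM without it (SD, n = 2 per group), a log2 fold change of -0.68 (edgeR adjusted p = 0.00302). Nlrp3 had 7 counts in EF 1 and 0 in the other libraries, and Il1b had none.

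**Figure D4:**
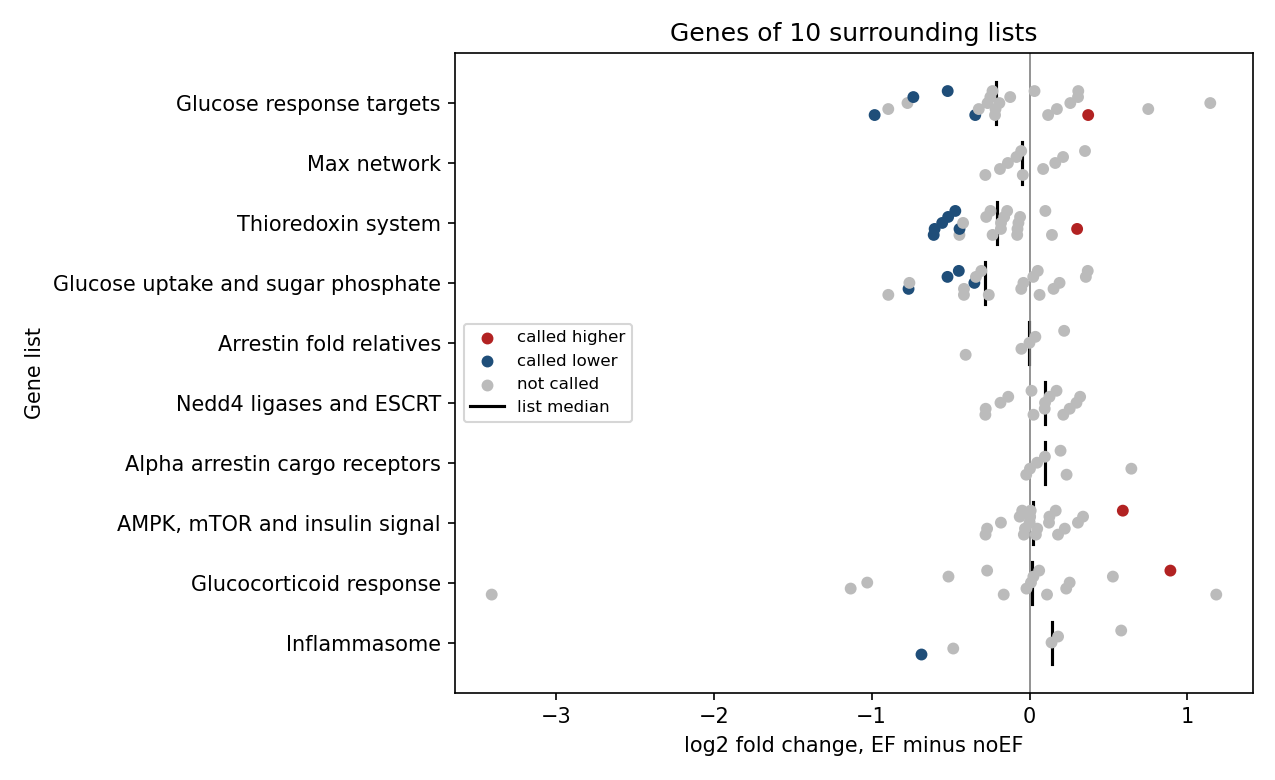
Log2 fold change, EF minus noEF, of each tested gene in the 10 lists, with genes called higher in red, called lower in dark blue and not called in grey, and a black bar at each list's median. The called genes lie mostly to the left in the glucose response, thioredoxin and sugar phosphate lists (medians -0.22, -0.21 and -0.28), where Txnip itself, at 1.00, is not plotted.

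The 5 genes whose pattern over the 4 libraries was most like that of Txnip were ranked by a measure of likeness. It was the root mean square difference of centred log2 CPM, over 11899 named genes with a mean of at least 1 CPM. The nearest were Fancd2, a Fanconi anaemia repair gene (0.020), Car8, a carbonic anhydrase relative (0.030), Rad18, a ubiquitin ligase of post-replication repair (0.043), Kif23, a kinesin of cytokinesis (0.047), and Pclaf, a PCNA clamp associated factor (0.051). With 2 groups of 2 libraries this measure finds genes with a difference of nearly the same size, and their log2 fold changes were 0.94 to 1.00. Fancd2 had 20.0 and 19.5 CPM with the field and 9.37 and 10.8 CPM without it. Fancd2 and Fancd2os share exon bases on opposite strands. Of the members Arrdc4 was nearest to Txnip (0.358), and 11.5% of the genes ranked were as near or nearer.

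Markers of the labelled cells were present, and those of astrocytes and some of those of progenitors moved with the groups. The 7 neural progenitor markers summed to 5071 and 5384 CPM in EF and 6891 and 6506 CPM in noEF. Of them 2 were called lower, Fabp7 at -0.50 and Sox9 at -0.43 (edgeR adjusted p = 0.00195 and 0.00521), and Sox9 missed the threshold without EF 1 (0.0504). Sox2, Vim and Hes5, at -0.27, -0.22 and -0.37, did not pass in edgeR, nor did Nes and Pax6, at 0.14 and 0.12. DESeq2 called 4 of the 7 lower and limma-voom 2, and edgeR had 4 lower at an unadjusted p under 0.05. Over all tested genes edgeR called 4.99% lower and 3.83% higher, which gives the scale for each marker list here. The 6 astrocyte markers summed to 2223 and 2234 CPM in EF and 3276 and 3350 CPM in noEF, with 4 of 6 called lower, Gfap among them (log2 fold change -1.45, edgeR adjusted p = 1.06e-07). The part of these differences in the Txnip result was not tested. The 6 neuron markers summed to 568 and 545 CPM in EF and 459 and 536 CPM in noEF, with 0 called by edgeR, DESeq2 or limma-voom and 2 at an unadjusted p under 0.05 in edgeR (1 higher and 1 lower). The 6 oligodendrocyte lineage markers summed to 373 and 413 CPM in EF and 390 and 392 CPM in noEF, and among them Pdgfra, the receptor of oligodendrocyte progenitors, was called lower (log2 fold change -0.52, edgeR adjusted p = 0.0396). Pdgfra lost the call without EF 1 (edgeR adjusted p = 0.258), without noEF 2 (-0.34, edgeR adjusted p = 0.187), with library totals (0.0648) and in limma-voom (0.0638). Of the 6 microglia markers 5 had no count in any library, and the list summed to 0.224 to 1.07 CPM. The 5 endothelial markers, with Cdh5 at 0, summed to 2.27 and 1.40 CPM in EF and 1.23 and 0.743 CPM in noEF. The 5 ependymal and choroid plexus markers, with Ttr and Tmem212 at 0, summed to 26.3 and 22.8 CPM in EF and 32.0 and 30.2 CPM in noEF. The 5 fibroblast and mural markers, with Lum at 0, summed to 9.16 and 4.84 CPM in EF and 3.87 and 3.42 CPM in noEF, and among them Acta2, a smooth muscle actin gene, was called higher (log2 fold change 1.17, edgeR adjusted p = 0.0309). The Acta2 counts were 310 and 169 in EF and 102 and 97 in noEF. Its call was lost without EF 1, at 0.69, and in limma-voom (adjusted p = 0.0963). Pdgfrb of the same list lay the other way, with counts of 0 and 0 in EF and 10 and 13 in noEF. It was not called by edgeR (adjusted p = 0.0912), while limma-voom called 1 gene of the list lower.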

How the data were processed

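Polyadenylated RNA was sequenced from 2 EF and 2 noEF libraries, grouped and numbered by their titles. The deposited table holds raw whole-number counts per gene. HISAT2 2.0.4, StringTie 2.2.1, DESeq2 1.44.0 and GRCm38 were used, per the submitters' processing notes, where no roles are stated. How reads were counted, on which annotation and with which strand setting, is not given in the sources used here.

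Counts were tested with edgeR 4.0.16 in R 4.3.3 (filterByExpr with a minimum count of 10 and a minimum total of 15, TMM scaling, robust quasi-likelihood F test) over 14263 genes, with Benjamini-Hochberg adjustment at 0.05. Log2 fold changes are EF minus noEF, and the SE is their size divided by the square root of F. The common biological coefficient of variation was 0.161. Gene models without an Ensembl identifier held 0.499% to 0.538% of the counts. Alternatives used DESeq2 1.42.0, limma 3.58.1 (voom), other scalings and filters, the replicate number as a block, removal of each library's trend on GC content and exon length (lowess, span 0.3), and each library left out. The scripts were tested on simulated data.

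The members, lists and motifs were chosen with earlier results of these data known. Named genes are the 8 members, up to 4 called genes with the smallest p in each list (the 1 with the smallest p where none was called), and the 5 genes most like Txnip in pattern. Other genes were named after their values were seen. One result of the energy and insulin signalling list is not reported here. Coordinates and exon lengths come from GENCODE M21 on GRCm38.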

Additional observations from a re-analysis of the deposited data

How the results depend on the processing

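Txnip kept its direction and its call under all 13 alternatives, and Arrdc1, Arrdc4 and Mlx kept their direction without a call. Removing the length and GC trend took Arrdc3 to -0.10, and to -0.10 with the replicate block added, and leaving out EF 1 took it to -0.020. Mlxip went to 0.15 without noEF 1 and Arrdc2 to 0.55 without noEF 2. Mlxipl went to -0.10 without EF 1 and to -0.58 without noEF 1, and it had no value with the filter of at least 1 CPM in 2 libraries and no adjusted p in DESeq2. The log2 fold changes with 1 library left out ran from -0.73 to 0.55 for Arrdc2, from -0.020 to 0.13 for Arrdc3, from -0.42 to 0.15 for Mlxip and from -0.58 to 1.56 for Mlxipl. None of these 4 genes was called in any fit, and the cause was not tested.

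Over all genes, 546 were higher and 712 lower. Library totals gave 1138 higher and 505 lower, so higher genes were 69.3% of the calls in place of 43.4%. No filter gave 915 and 1203, with more genes tested. Leaving out 1 library gave 217 to 790 higher and 337 to 1065 lower genes, fewest without EF 1, where the lone sample is assumed to vary like the other group.

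The labels do not say that replicate numbers mark a shared culture, and the deviations of same-numbered libraries from their group means correlated at -0.0898 over genes. With the replicate block 410 genes were higher and 568 lower, Txnip was at 1.01 (SE 0.12), and Scd2 (adjusted p = 0.0674), Pgd (0.0634), Gpd1 (0.068), Txnrd3 (0.0628) and Tmx1 (0.102) lost their edgeR call.

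Of the list genes that were called or named, 42 calls were lost and 2 gained over all alternatives, and 0 directions changed. The thioredoxin list had 4 to 9 genes lower, the glucose response list 3 to 6 and the sugar phosphate list 2 to 6. With 2 libraries a group, small differences in the scarce Arrdc1, Arrdc2 and Mlxipl were not detectable.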
